A study of Homo sapiens with 5 samples.

Results

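The genes described here drive and carry out cell division: 50 mitotic regulators, condensin subunits and cytokinesis genes, out of 19775 genes with a single-symbol probe set on the arrays. They were chosen by name, with earlier results of these data known, and all 50 were found. Where a gene had several probe sets, the brightest on average over the 5 arrays stood for it. Messenger RNA was measured on Affymetrix arrays in PC-3, an established line of human prostate cancer that grows without androgen. According to the sample titles, 1 array held cells grown as spheroids, 1 held cells with the hairpin shTRIB1-1 and 1 held cells with a different hairpin, shTRIB1-2, both against TRIB1. A further array held cells with the control hairpin shGFP, and 1 held cells cultured in 2D, for which the title names no hairpin. All 5 groups are the same line, no drug or other treatment is named, and the labels do not say whether the hairpin lines are clones or pools. They give the same growth in dishes for all 5 samples, so no source used here says how the spheroids were made. The study asked which genes differ between growth in 3 dimensions and in 2D, and which depend on TRIB1, a pseudokinase that recruits substrates to a ubiquitin ligase. The value used throughout is the level, the log2 of the deposited RMA intensity, so that a difference of 1 is 2-fold. Levels of different genes come from different probes and are not set against each other.

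Entry into mitosis is driven by CDK1 bound to cyclin A or B, which CDC25 phosphatases switch on. Polo and Aurora kinases then build the spindle, condensins fold the chromosomes, the anaphase-promoting complex (APC/C) marks securin and cyclin B for destruction, and a contractile ring divides the cell. Most of these genes are transcribed in G2 and M phase by the MuvB complex with B-MYB (MYBL2) and FOXM1, which act on CHR elements and on nearby NF-Y boxes in their promoters, and they are silent in resting cells. Their messenger RNA is therefore widely used to read how many cells of a tumour are cycling.

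The matches to the motifs of this known promoter arrangement are shown here before the array values. RefSeq (GRCh38.p14) windows from 250 bases before to 50 bases after the listed gene start were available for 42 members. The first listed start was used for the 10 members with several. AURKA, TPX2, PBK, BIRC5, UBE2C, FAM83D, RACGAP1 and FOXM1 are named only. The CHR element was searched as TTTGAA and as TTTAAA and the NF-Y box as CCAAT, each on both strands, with overlapping matches counted. The letters TTTGAA occurred in 27 of 42 windows (64.3%), against 15.4% of the windows of 27305 genes and 9.52% of those of 8723 genes measured on the hairpin arrays. For TTTAAA the share was 9 of 42 (21.4%), against 12.3% of all windows. CCAAT occurred in 29 of 42 (69.0%), against 35.7% of all windows. At least 1 form of the CHR letters together with CCAAT was present in 24 of 42 windows (57.1%), against 9.49% of all. Of the 30 members with either CHR form, 16 had a match that began 40 to 10 bases before the start, or 38.1% of the 42 windows, against 3.45% of all windows and 1.99% of those of the measured genes. These matches are descriptions of letters, not of bound sites. The stretches printed here run from 130 bases before the start to the base before it. The first 8 belong to members much lower in the spheroid array, drawn from several roles, ESPL1 and INCENP are members with small differences and both motifs, and NCAPD3 and CDC25B have no match in the window, with a difference of -0.86 and of -1.28. Capitals mark the motif matches, which overlap in HMMR and MKI67.
CCNB2, chr15:59105016-59105145, plus strand: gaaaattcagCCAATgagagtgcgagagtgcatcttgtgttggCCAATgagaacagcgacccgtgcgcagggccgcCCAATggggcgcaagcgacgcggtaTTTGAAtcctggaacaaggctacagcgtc
CCNB1, chr5:69167020-69167149, plus strand: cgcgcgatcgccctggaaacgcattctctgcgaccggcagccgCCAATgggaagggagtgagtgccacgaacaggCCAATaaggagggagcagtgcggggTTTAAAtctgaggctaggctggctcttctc
ASPM, chr1:197146670-197146799, minus strand: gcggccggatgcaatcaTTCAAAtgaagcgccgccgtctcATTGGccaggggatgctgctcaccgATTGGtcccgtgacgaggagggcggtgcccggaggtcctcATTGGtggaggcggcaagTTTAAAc
HMMR, chr5:163460502-163460631, plus strand: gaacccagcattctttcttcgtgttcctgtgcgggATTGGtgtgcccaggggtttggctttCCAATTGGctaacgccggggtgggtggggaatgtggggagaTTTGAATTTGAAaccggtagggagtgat
DEPDC1, chr1:68497083-68497212, minus strand: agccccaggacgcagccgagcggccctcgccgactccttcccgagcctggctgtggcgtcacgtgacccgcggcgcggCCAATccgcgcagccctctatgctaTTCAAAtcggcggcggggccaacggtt
MKI67, chr10:128126424-128126553, minus strand: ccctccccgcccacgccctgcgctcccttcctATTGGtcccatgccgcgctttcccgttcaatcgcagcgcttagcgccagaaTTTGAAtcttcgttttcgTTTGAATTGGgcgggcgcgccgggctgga
PRC1, chr15:90994536-90994665, minus strand: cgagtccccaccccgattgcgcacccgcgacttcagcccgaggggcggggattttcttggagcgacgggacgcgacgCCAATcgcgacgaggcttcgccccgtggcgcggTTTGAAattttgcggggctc
NCAPG, chr4:17810849-17810978, plus strand: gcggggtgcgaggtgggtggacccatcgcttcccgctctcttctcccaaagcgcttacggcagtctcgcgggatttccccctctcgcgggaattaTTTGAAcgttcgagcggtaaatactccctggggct
ESPL1, chr12:53268169-53268298, plus strand: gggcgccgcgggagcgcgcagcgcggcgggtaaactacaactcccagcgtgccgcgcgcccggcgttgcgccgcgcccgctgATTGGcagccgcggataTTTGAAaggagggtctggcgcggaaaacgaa
INCENP, chr11:62123881-62124010, plus strand: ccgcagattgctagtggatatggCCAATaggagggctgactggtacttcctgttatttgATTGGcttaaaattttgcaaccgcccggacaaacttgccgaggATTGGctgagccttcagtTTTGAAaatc
NCAPD3, chr11:134225462-134225591, minus strand: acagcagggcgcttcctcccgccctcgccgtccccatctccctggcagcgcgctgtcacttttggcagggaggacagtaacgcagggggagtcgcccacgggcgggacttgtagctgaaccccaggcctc
CDC25B, chr20:3786821-3786950, plus strand: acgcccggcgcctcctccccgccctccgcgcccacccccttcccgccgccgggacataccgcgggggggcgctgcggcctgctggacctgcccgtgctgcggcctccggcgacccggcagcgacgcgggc
In CCNB2 the CCAAT boxes lie in a row upstream of a single TTTGAA, and CCNB1 has the same layout with TTTAAA in its place. Both motifs also lie close together in DEPDC1 and PRC1, whereas NCAPG has only the CHR letters.

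**Figure D1:**
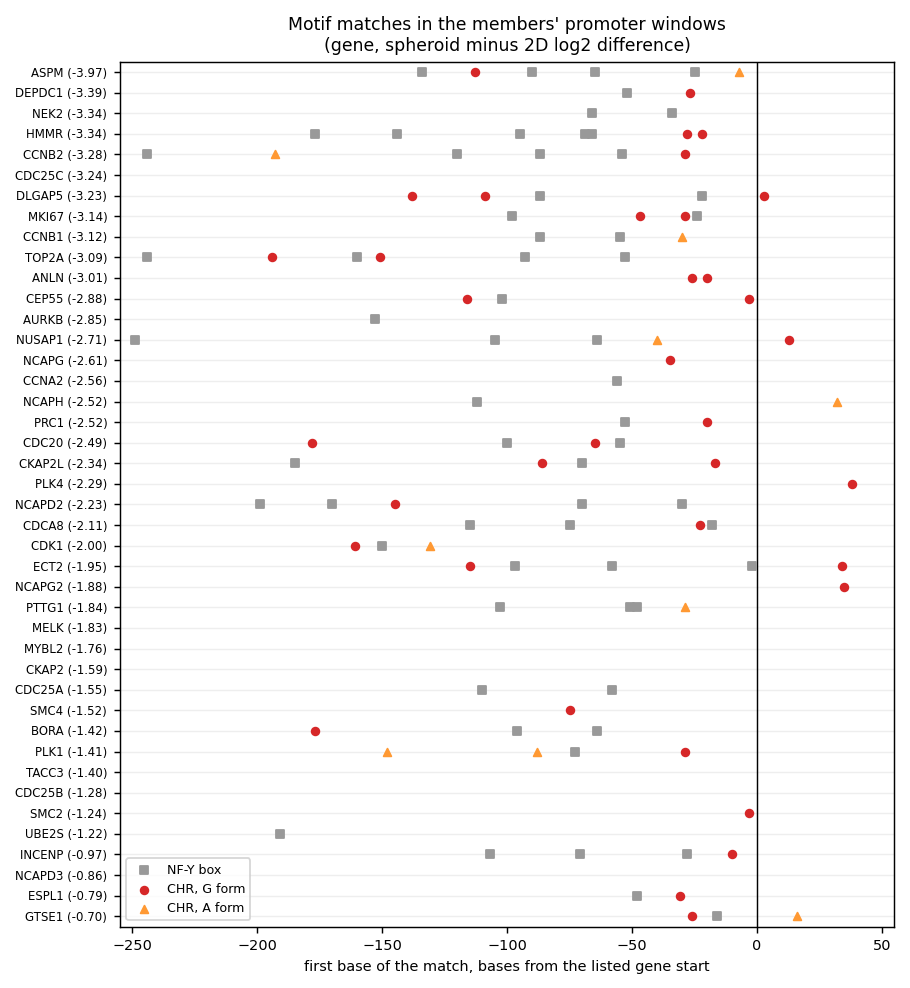
Positions of motif matches (first base, in bases from the listed gene start, where 0 is the first base of the gene) in the promoter windows of 42 members, ordered from the lowest spheroid minus 2D log2 difference at the top, which is printed beside each gene. Red circles and orange triangles are the G and A forms of the CHR letters and grey squares are NF-Y boxes; 30 members have a CHR match and rows without symbols have no match.

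As a check of the labels, TRIB1 read 11.91 on the array labelled shTRIB1-1 and 11.76 on that labelled shTRIB1-2, against 11.97 with shGFP, and it read 11.23 in spheroids, against 11.04 in 2D. The probe set thus gives no clear depletion on the labelled arrays, and the directions below are those of the labelled arrays. KRT18 (12.48 to 13.19), EPCAM (11.28 to 12.23) and KRT8 (9.39 to 11.01) were high on all 5 arrays, as epithelial markers, and the leukocyte marker PTPRC was between 3.58 and 4.03. The endothelial marker PECAM1 was at 9.53 on the spheroid array, at 7.57 on the 2D array and between 5.70 and 6.62 on the hairpin arrays. VWF, another endothelial marker, was between 5.08 and 5.45 on all 5 arrays. The part of PECAM1 in the results was not tested. The 5′ to 3′ signal ratio of actin was 0.131 in spheroids, 0.445 with shTRIB1-1, 0.442 with shTRIB1-2, 0.436 with shGFP and 0.184 in 2D. The arrays with hairpins therefore stand apart from the other pair in this measure. The ratio of thr, a spiked-in control RNA, split the same way. It was 0.0913 in spheroids, 0.269 with shTRIB1-1, 0.217 with shTRIB1-2, 0.264 with shGFP and 0.113 in 2D. That of GAPDH ranged from 0.763 in spheroids to 0.944 with shGFP. The spheroid, shGFP and 2D conditions have 1 array each, and the differences between them are given without a test. The part of these ratios or of RNA quality in the results was not tested.

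Mitotic genes were lowest in spheroids and highest in 2D culture. The spheroid array gave the lowest of the 5 levels for 49 of 50 members, whereas it was the lowest for 28.1% of 10843 genes. ESPL1 was the exception. The 2D array gave the highest level for 49 of 50, against 24.3% of genes, with CDC25B as the exception. The 3 arrays with hairpins lay between these extremes for most members. Less of these RNAs per cell and fewer dividing cells cannot be told apart in bulk RNA.

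**Figure D2:**
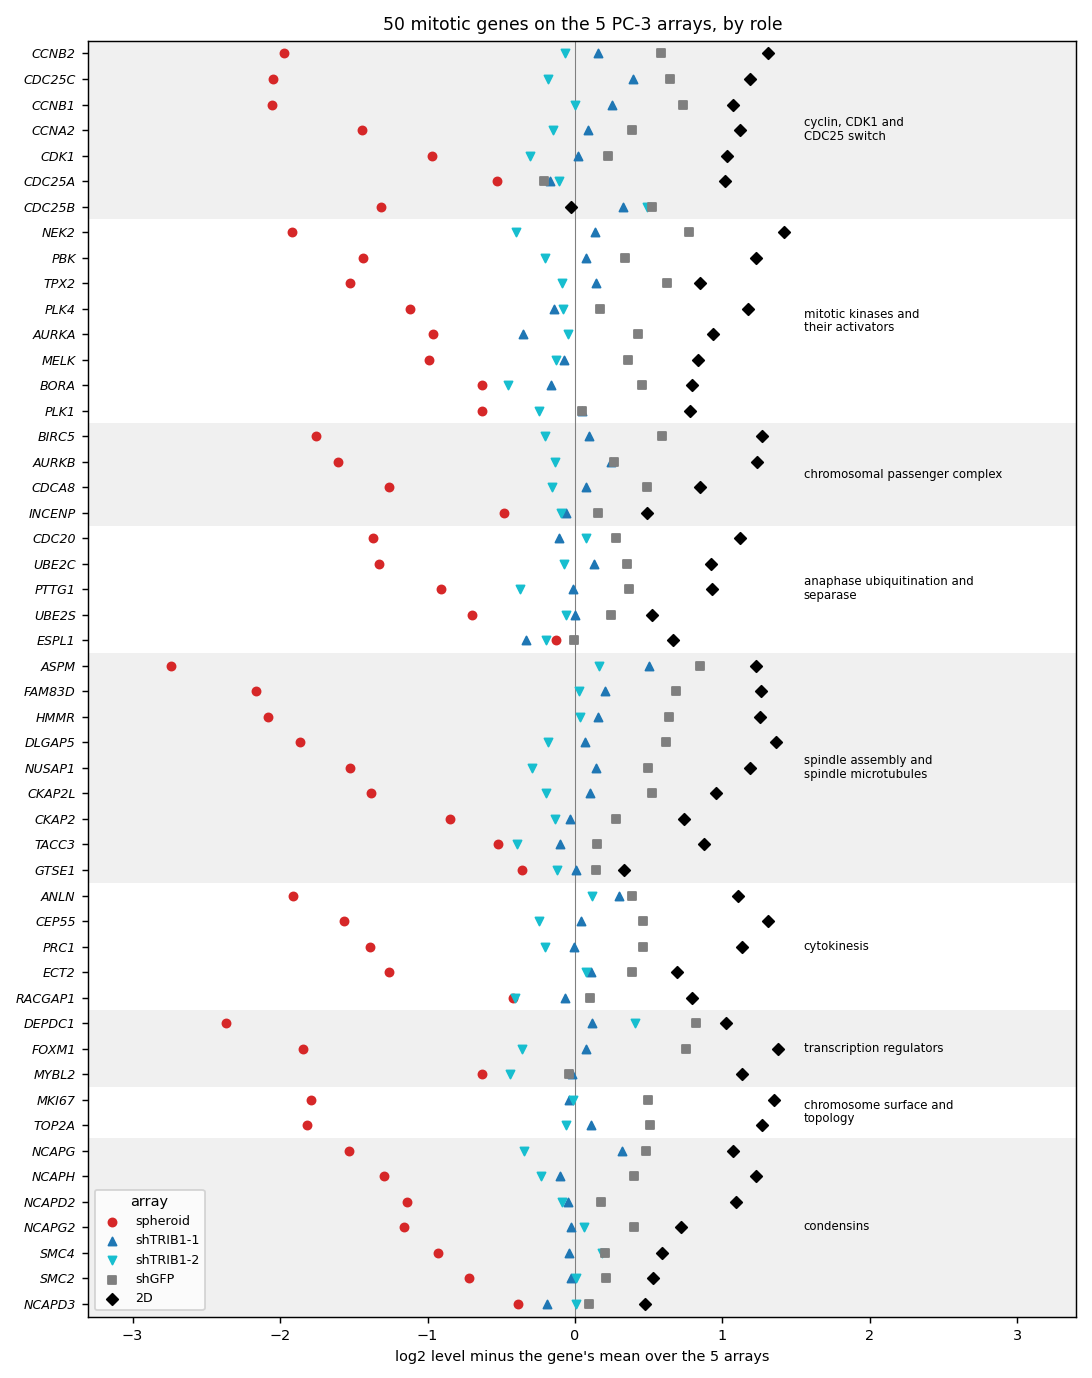
Level of each of the 50 members on the 5 arrays, as the log2 level minus the gene's mean over the 5 arrays, grouped by role (shaded bands). Each symbol is 1 array; the spheroid array (red circles) is lowest for 49 of 50 members and the 2D array (black diamonds) highest for 49 of 50.

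Set against 2D, the spheroid array was at least 2-fold lower for 46 of 50 members, where 5.23% of 10570 genes tested were. It was at least 4-fold lower for 30 members (1.25% of genes) and at least 8-fold lower for 14 (0.322%). None of the 50 was higher. The median difference was -2.32 over the 50 members (range -3.97 to -0.70) and -0.0083 over all genes tested. INCENP, ESPL1, GTSE1 and NCAPD3 did not reach 2-fold. CDC25C, PLK1, NEK2, AURKB, INCENP and ASPM had spheroid levels under 6, near background, and entered the comparison only through their 2D level. The sizes of their differences are therefore uncertain. This also applies to members with spheroid levels little above 6, such as PLK4 (6.08), DEPDC1 (6.14), FOXM1 (6.23) and TACC3 (6.26).

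With the labelled TRIB1 hairpins, mitotic genes were lower than on the shGFP array by a smaller amount. With shTRIB1-1 alone 47 of 49 members tested were lower (53.5% of genes), and with shTRIB1-2 alone 48 (51.3%). On both labelled arrays together 47 of the 49 were lower, where 34.7% of 10522 genes were, and 1, CDC25A, was higher on both (25% of genes). None was 2-fold lower on both (0.0855% of genes). The median over all 50 members was -0.33 with shTRIB1-1 and -0.52 with shTRIB1-2, against -0.027 and -0.0095 over all genes tested. Both differences use the same shGFP array, so any shift of that array enters both. Limma, with 1 residual degree of freedom, called 0 members and 0 of all genes (0%), and the adjusted p of the members lay between 0.951 and 0.958. At an unadjusted p under 0.05 limma held 3 of 49 members, all lower, where 3.38% of genes passed in either direction and 1.57% were lower. They were MKI67, NCAPH and HMMR. Against shGFP and 2D as 2 controls, 22 of the 49 were lower at that unadjusted p, where 3.3% of genes were, and limma again called 0 after adjustment. The 2D array has no hairpin in its title and was higher than shGFP for 49 of 50 members, so the count of 22 also holds that difference.

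The shGFP array was itself lower than the 2D array for 49 of 50 members, where 47.3% of 10450 genes were lower. The median difference was -0.62 over the members and 0 over all genes tested. At least 2-fold lower were 3 members, CDC25A, PLK4 and MYBL2 (2.11% of genes). The members' median difference between these arrays, neither of which is labelled with a TRIB1 hairpin, was thus larger than that between either labelled shTRIB1 array and shGFP. The actin ratio was 0.436 with shGFP and 0.184 in 2D, and its part was not tested.

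**Figure D3:**
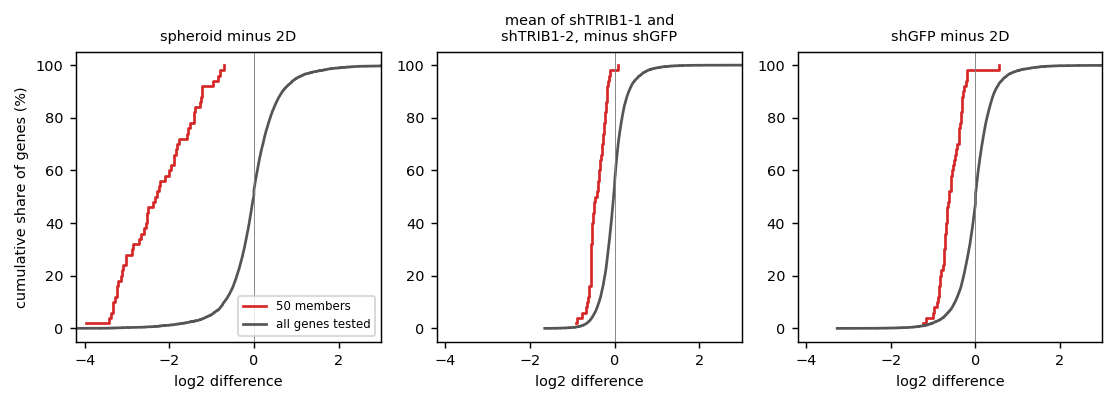
Cumulative share of genes (%) by log2 difference for the 50 members (red) and for all genes tested (grey), for spheroid minus 2D, the mean of the shTRIB1 arrays minus shGFP, and shGFP minus 2D. The members' medians are -2.32, -0.44 and -0.62, and those of all genes are -0.0083, -0.027 and 0.

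The cyclins and CDC25 phosphatases that switch CDK1 on were all at least 2-fold lower in spheroids, with a median of -2.56 over 7 genes. CCNA2, the cyclin of S and G2 phase, was at 7.04 in spheroids, 8.57 with shTRIB1-1, 8.33 with shTRIB1-2, 8.87 with shGFP and 9.61 in 2D. The B-type cyclins, which carry cells through mitosis, stood further apart, with spheroid minus 2D differences of -3.28 for CCNB2 (9.74-fold) and -3.12 for CCNB1 (8.72-fold). Taken as the median over its probe sets CCNB2 gave -0.063, because its other 2 probe sets were under 6 on both arrays. Their kinase CDK1 was at 10.12 in spheroids and 12.13 in 2D. The 3 CDC25 phosphatases did not share a pattern. CDC25C, which acts at mitotic entry, differed by -3.24 between spheroid and 2D, with its spheroid level near background, and by -0.25 and -0.83 between the labelled arrays and shGFP. CDC25A, which also acts at the start of S phase, was at 6.999 in spheroids, 7.36 and 7.42 with shTRIB1-1 and shTRIB1-2, 7.32 with shGFP and 8.55 in 2D. Its level thus set the 2D array apart from the other 4, which lay within a narrow range. CDC25B was at 7.79 in spheroids, 9.43 and 9.59 with the TRIB1 hairpins, 9.63 with shGFP and 9.07 in 2D. It was the only member with a higher level on the shGFP array than in 2D, by 0.56.

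Among the mitotic kinases and their activators, all 8 were at least 2-fold lower in spheroids, with a median of -2.09. NEK2, a kinase that separates the centrosomes, was at 5.99 in spheroids, 8.05 with shTRIB1-1, 7.51 with shTRIB1-2, 8.68 with shGFP and 9.33 in 2D. Its spheroid level was at the edge of background, so the size of that difference is uncertain. NEK2 had the lowest mean difference of all members on the labelled arrays, -0.91 ± 0.38 (SD, n = 2). BORA, which lets Aurora A activate PLK1, was at 7.03 in spheroids, 7.49 and 7.20 with the TRIB1 hairpins, 8.11 with shGFP and 8.45 in 2D. On the labelled arrays BORA was lower than shGFP by a mean of -0.77 ± 0.21 (SD, n = 2), more than shGFP was lower than 2D (-0.34). AURKA, the spindle pole kinase, and its activator TPX2 differed by -1.90 and -2.37 between spheroid and 2D. AURKA was lower with shTRIB1-1 (-0.78) than with shTRIB1-2 (-0.47), and TPX2 the other way (-0.48 and -0.71). PLK1, the main polo kinase, gave a weak signal, at 4.77 in spheroids, 5.46 and 5.16 with the TRIB1 hairpins, 5.46 with shGFP and 6.18 in 2D. Only its 2D level passed 6, so it was not tested on the hairpin arrays and little can be read from its size. PLK4, which duplicates centrioles, differed by -2.29 between spheroid and 2D, and the kinases PBK and MELK, which are made in dividing cells, by -2.66 and -1.83.

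Of the chromosomal passenger complex, which corrects the attachment of chromosomes to the spindle, the scaffold INCENP differed least. AURKB, its kinase, was at 5.49 in spheroids, 7.35 and 6.97 with shTRIB1-1 and shTRIB1-2, 7.37 with shGFP and 8.34 in 2D. BIRC5 (survivin) and CDCA8 (borealin), which place the complex on centromeres, differed by -3.03 and -2.11 between spheroid and 2D. INCENP was at 5.38 in spheroids, 5.80 and 5.76 with the TRIB1 hairpins, 6.02 with shGFP and 6.35 in 2D. This gave -0.97 between spheroid and 2D, at a level near background on every array. On the labelled arrays BIRC5 had the lowest mean of the 4, at -0.64 ± 0.21 (SD, n = 2), and AURKB was nearly level with shGFP on the shTRIB1-1 array (-0.023) and lower on the shTRIB1-2 array (-0.40).

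The anaphase genes ranged from more than 4-fold lower to less than 2-fold lower in spheroids, with a median of -1.84 over 5 genes. CDC20, which activates the APC/C, was at 7.70 in spheroids, 8.96 and 9.15 with shTRIB1-1 and shTRIB1-2, 9.35 with shGFP and 10.19 in 2D. UBE2C and UBE2S, the enzymes that start and extend the APC/C's ubiquitin chains, differed by -2.25 and -1.22. Securin (PTTG1) differed by -1.84, and separase (ESPL1), the protease that securin holds in check, by -0.79. ESPL1 was at 7.91 in spheroids, 7.71 and 7.84 with the TRIB1 hairpins, 8.03 with shGFP and 8.70 in 2D. The spheroid level of ESPL1 therefore lay within the range of the 3 hairpin arrays, unlike that of every other member. Its other probe set gave -0.72, close to the first.

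Of 9 spindle assembly genes, 8 were at least 2-fold lower in spheroids, with a median of -2.71 and a wide range from -3.97 to -0.70. ASPM, which focuses microtubules at the spindle poles, had the lowest value of the 50 for spheroid minus 2D. It was at 4.99 in spheroids, 8.23 with shTRIB1-1, 7.89 with shTRIB1-2, 8.58 with shGFP and 8.96 in 2D. The spheroid level lay near background, so how far ASPM was below its 2D level is uncertain. FAM83D, which anchors casein kinase 1 to the spindle, was at 7.66 in spheroids, 10.03 and 9.85 with the TRIB1 hairpins, 10.51 with shGFP and 11.08 in 2D. HMMR, a hyaluronan receptor that also binds the spindle, was at 7.81 in spheroids, 10.05 and 9.93 with the TRIB1 hairpins, 10.53 with shGFP and 11.15 in 2D. Both genes were thus over 8-fold lower in spheroids than in 2D, with the hairpin arrays between. DLGAP5, a microtubule-binding protein of the spindle, was at 7.53 in spheroids, 9.46 and 9.21 with the TRIB1 hairpins, 10.00 with shGFP and 10.75 in 2D. NUSAP1, which bundles microtubules near chromosomes, was at 8.32 in spheroids, 9.99 and 9.55 with the TRIB1 hairpins, 10.34 with shGFP and 11.03 in 2D. CKAP2L (-2.34), CKAP2 (-1.59) and TACC3 (-1.40), which bind or stabilise spindle microtubules, were less far from their 2D levels. As the median over its probe sets, the others of which were under 6, CKAP2 gave -0.22. All 9 spindle genes were lower on both labelled arrays than on the shGFP array, where 34.7% of all genes were. All 9 were also lower with shTRIB1-2 than with shTRIB1-1, where 47.3% of genes were.

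GTSE1, a microtubule-binding protein of G2 and M phase, was the clearest case in which the choice of probe set decides the value. The chosen probe set read 8.82 in spheroids, 9.19 and 9.06 with the TRIB1 hairpins, 9.33 with shGFP and 9.52 in 2D, a spheroid minus 2D difference of -0.70 and the smallest of the 50. Of the other 4 GTSE1 probe sets, 3 were above 6 in 2D but at 4.55, 4.32 and 4.39 in spheroids, near background, and gave -3.20, -3.60 and -2.34. The last, below 6 on both arrays, gave -0.097. By those 3 probe sets GTSE1 would pass 2-fold, though their exact sizes are uncertain. Of the members, 25 had several probe sets, 46 of them beside those chosen. All 46 were lower in the spheroid array, and of the 35 that reached a level of 6 there or in 2D, 33 were at least 2-fold lower, where 4.93% of 18423 probe sets were. Of these 35, 19 reached 6 only in 2D. Of the 16 that reached 6 on both arrays, 15 were at least 2-fold lower, where 3.85% of 16552 probe sets were. The other 2 of the 35 were those of ESPL1 (-0.72) and AURKB (-0.91). DEPDC1 differed by -3.44 to -4.19 on its other 3 probe sets, and SMC4 by -1.65 and -2.01 on its other 2.

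**Figure D4:**
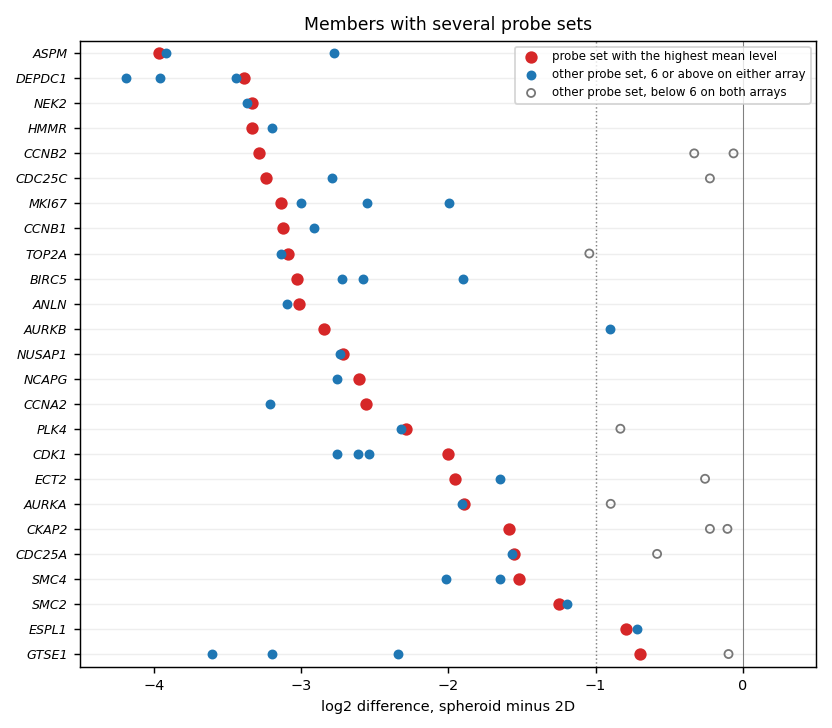
Spheroid minus 2D log2 difference of every probe set of the 25 members that have several. Red marks the probe set with the highest mean level, blue the others at 6 or above on either array, which may be the 2D array alone, and open grey those below 6 on both; the dotted line is 2-fold, and GTSE1 at the bottom has its chosen probe set at -0.70 and 3 others between -3.60 and -2.34.

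The 5 cytokinesis genes were all at least 2-fold lower in spheroids, with a median of -2.52. PRC1, which bundles the microtubules of the central spindle, was at 7.89 in spheroids, 9.27 and 9.07 with shTRIB1-1 and shTRIB1-2, 9.74 with shGFP and 10.41 in 2D. ANLN (anillin), the scaffold of the contractile ring, differed by -3.01 and CEP55, which recruits the abscission machinery to the midbody, by -2.88. ECT2, the exchange factor that activates RhoA at the division plane, differed by -1.95. RACGAP1, the centralspindlin subunit that binds ECT2, was at 9.32 in spheroids, 9.67 and 9.33 with the TRIB1 hairpins, 9.84 with shGFP and 10.53 in 2D. Its level with shTRIB1-2 was nearly the same as in spheroids. ANLN was 8.08-fold lower in spheroids than in 2D but had a mean difference of only -0.18 ± 0.13 (SD, n = 2) on the labelled arrays.

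The 2 transcription factors of this programme differed from each other. FOXM1 was at 6.23 in spheroids, 8.14 with shTRIB1-1, 7.71 with shTRIB1-2, 8.82 with shGFP and 9.45 in 2D. It was 9.32-fold lower in spheroids than in 2D, a size that is uncertain because the spheroid level was little above background. FOXM1 had the second lowest mean on the labelled arrays, -0.89 ± 0.31 (SD, n = 2). MYBL2 differed by -1.76 between spheroid and 2D, by 0.019 and -0.40 between the labelled arrays and shGFP, and by -1.17 between shGFP and 2D. Its largest difference on the hairpin arrays was therefore that between shGFP and 2D, as for CDC25A. DEPDC1, a transcriptional corepressor in cancer cells, was at 6.14 in spheroids, 8.62 and 8.91 with the TRIB1 hairpins, 9.33 with shGFP and 9.53 in 2D. Its spheroid level was also little above background.

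MKI67, which coats mitotic chromosomes and is the Ki-67 proliferation antigen, was at 6.60 in spheroids, 8.35 and 8.37 with shTRIB1-1 and shTRIB1-2, 8.88 with shGFP and 9.73 in 2D. On the chosen probe set the labelled arrays gave nearly the same value, so the difference of MKI67 from shGFP was -0.52 ± 0.017 (SD, n = 2). Its other probe sets gave mean differences of -0.45, -0.40 and -0.076, the last with levels under 6 on all arrays with hairpins. The labelled arrays lay further apart on each of these, so the small SD belongs to the chosen probe set only. TOP2A, which untangles sister chromatids, differed by -3.09 between spheroid and 2D and by -0.40 and -0.57 between the labelled arrays and shGFP.

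Of 7 condensin members, 6 were at least 2-fold lower in spheroids than in 2D, with a median of -1.88. The 3 subunits of condensin I, which acts on chromosomes after the nuclear envelope breaks down, differed between spheroid and 2D by -2.61 (NCAPG), -2.52 (NCAPH) and -2.23 (NCAPD2). NCAPD2 was at 7.14 in spheroids, 8.23 and 8.19 with shTRIB1-1 and shTRIB1-2, 8.46 with shGFP and 9.37 in 2D. The subunits of condensin II, which is nuclear throughout the cycle, differed by -1.88 (NCAPG2) and -0.86 (NCAPD3). NCAPD3 was at 8.34 in spheroids, 8.53 and 8.73 with the TRIB1 hairpins, 8.81 with shGFP and 9.20 in 2D. NCAPH2, the remaining condensin II subunit, is not among the 50 and was looked up after the others were seen; it was between 6.03 and 6.15 on all 5 arrays, near background, with a difference of -0.094. The SMC2 and SMC4 ATPases, which both complexes share, differed by -1.24 and -1.52. SMC4 was at 9.78 in spheroids, 10.67 and 10.90 with the TRIB1 hairpins, 10.91 with shGFP and 11.30 in 2D. The range of condensin I (-2.61 to -2.23) thus did not overlap with that of the condensin II and SMC members (-1.88 to -0.86) for spheroid minus 2D, a description without a test. The complexes did overlap against shGFP, where NCAPG2 differed by -1.56 and NCAPD2 by -1.32 in spheroids, and by means of -0.38 and -0.24 on the labelled arrays. On both labelled arrays all 7 condensin members were lower than shGFP, where 34.7% of all genes were. Their means ran from -0.57 (NCAPH) to -0.13 (SMC4). NCAPG was lower by 0.83 with shTRIB1-2 but only by 0.16 with shTRIB1-1.

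**Figure D5:**
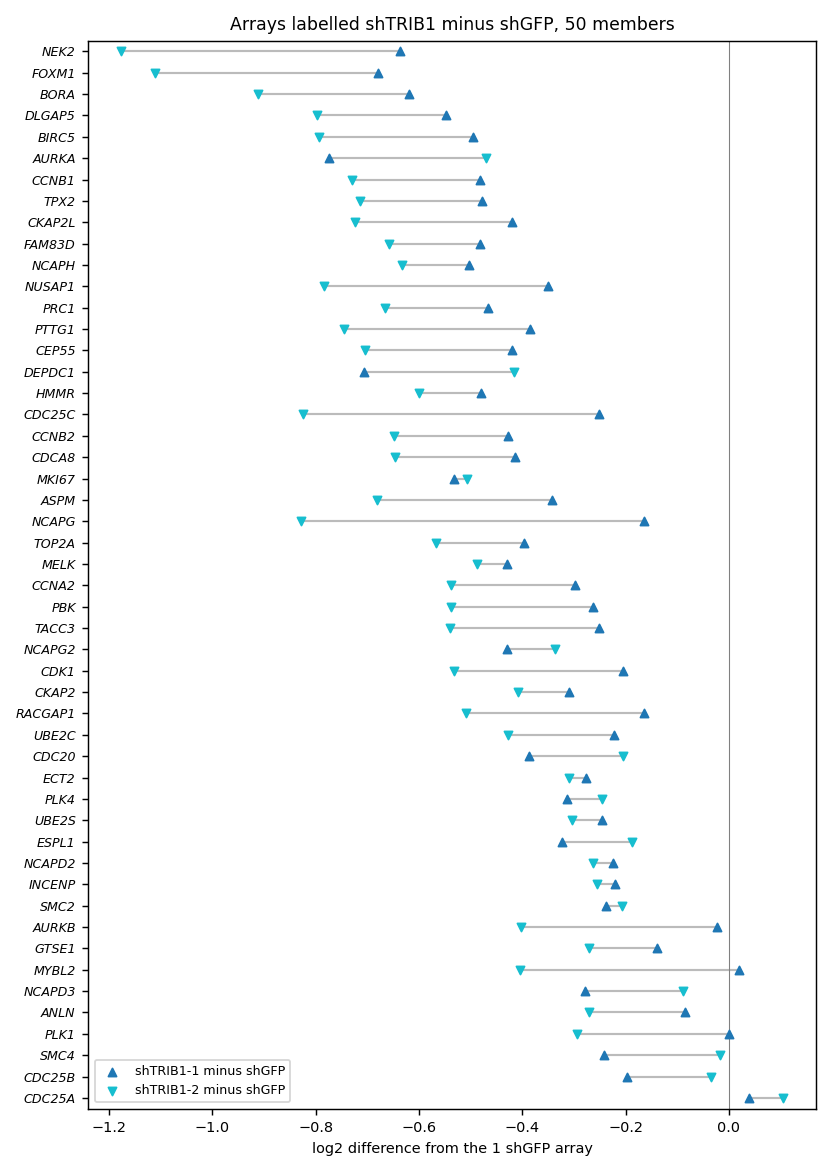
Log2 difference from the 1 shGFP array for the arrays labelled shTRIB1-1 (upward triangles) and shTRIB1-2 (downward triangles), for each of the 50 members, ordered by their mean. Symbols left of 0 are lower than shGFP; NEK2 and FOXM1 are lowest, CDC25A is above 0 with both hairpins, and PLK1, the member not tested here, is included.

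The shTRIB1-2 array was lower than the shTRIB1-1 array for 37 of the 49 members tested, where 47.3% of 10522 genes were, with a median of -0.20 over the 50. The largest such gap was that of NCAPG (-0.66). Exceptions included AURKA (0.30), DEPDC1 (0.29) and the SMC and condensin II subunits.

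Promoter letters and differences were set side by side for the 42 members with a window. The median spheroid minus 2D difference was -2.42 for the 30 with either CHR form and -1.68 for the 12 without. With CCAAT it was -2.52 (29 genes), and -1.76 without (13 genes). The groups overlapped. CCNA2 (-2.56) and MELK (-1.83), both above background in spheroids, had neither form of the CHR letters in the window, and ESPL1 (-0.79) and INCENP (-0.97) had both motifs. No test was made, because the members were chosen by name with earlier results of these data known.

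Other genes of cell division were taken from 5 lists and are read beside the 5.23% of all genes that were at least 2-fold lower in spheroids. Of 14 APC/C subunits and coactivators tested, 0 were 2-fold lower in the spheroid array and 0 were 2-fold higher (5.05% of genes were), with a median of -0.096. ANAPC15 (-0.85) and CDC27 (-0.46) were lowest and ANAPC16 (0.51) and ANAPC13 (0.34) highest. The contractile ring and abscission genes, with 12 tested, had a median of -0.13 and also no member past 2-fold. They ran from MYH10 (-0.87) and SEPTIN2 (-0.48) to TSG101 (0.44) and CHMP4B (0.53). Among 14 cohesin genes, 2 were at least 2-fold lower, the acetyltransferase ESCO2 (-2.19) and sororin, CDCA5 (-1.68), which both act in S and G2 phase. For ESCO2 the 2D array stood apart, at 8.67, and the spheroid array, at 6.48, was not the lowest. It read 5.89 with shTRIB1-1, 4.95 with shTRIB1-2 and 5.78 with shGFP. MAU2 (0.60) and ESCO1 (0.17) were highest in that list. Of 13 other CDK1 switch genes, 3 were at least 2-fold lower: CDKN3 (-2.22), CCNF (-1.60) and MASTL (-1.50), the kinase that holds back the opposing phosphatase. CDK7 (0.50) and CCNH (0.46), subunits of the CDK-activating kinase, were highest. In the MuvB, DREAM and E2F list 5 of 14 were at least 2-fold lower, led by the repressors E2F8 (-2.52) and E2F7 (-2.04), and LIN9, RBL1 and TFDP1 were the others. RBL2 (p130), a partner of MuvB in resting cells, was highest at 0.71, followed by LIN37 at 0.56. On the labelled arrays 4 of 14 APC/C genes, 7 of 13 cohesin genes, 3 of 12 ring and abscission genes, 5 of 13 CDK1 switch genes and 3 of 13 MuvB, DREAM and E2F genes were lower on both, beside the 34.7% of all genes.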

How the data were processed

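The 5 arrays hold total RNA of PC-3 cells, and groups came from the sample titles. The authors deposited 1 linear intensity per probe set, made with RMA per the submitters' processing notes. No label used here gives the version, the chip definition file or the return to a linear scale. Quantile normalization, a step of RMA, gives all arrays nearly the same distribution and would hide a shift of most genes.

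From these, log2 was taken with no pseudocount. Of 54675 probe sets, 41097 carried 1 symbol in the platform annotation. For each of 19775 genes the brightest probe set on average was kept. A gene entered a comparison at a level of at least 6 on any compared array. Hairpin arrays were compared with shGFP by limma 3.58.1 in R 4.3.3, with a trend in eBayes and p-values adjusted over all genes tested (Benjamini-Hochberg, 0.05). The fit was tested on simulated data. Each SD lies between the 2 hairpin arrays and leaves out the spread of shGFP. The p-values against shGFP rest on the gap between these 2 arrays, which carry different hairpins. Differences between the hairpins therefore cannot be told apart from culture or technical spread. Nothing says that any of the lines was cultured more than once. Arrays have no depth; their number limits the precision. Python 3.11.15 made the counts, motif searches and figures.

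The members and lists were chosen with earlier results of these data known. Values on every array are printed for the 5 lowest and 5 highest spheroid minus 2D differences, the 4 lowest and 4 highest mean hairpin differences and the first member of each of 9 roles, and for each of the 5 other lists the 2 lowest and 2 highest are named; LIN9, RBL1, TFDP1 and MASTL are named because they passed 2-fold. Genes of these lists without a single-symbol probe set were not analysed here. Alternatives were the median of a gene's probe sets, no _s_at or _x_at probe sets, other level filters, centring, other controls, other limma fits and leaving out each hairpin.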

Additional observations from a re-analysis of the deposited data

How the results depend on the processing

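Signs held for all 50 members for spheroid minus 2D under centring, the median over probe sets and the mean of 2D and shGFP as the control, and for the 38 with a probe set not ending in _s_at or _x_at, but sizes did not all hold. Below 2-fold went CCNB2 (-0.063) and CKAP2 (-0.22) with the median over probe sets, CDC25C (-0.22), ECT2 (-0.26) and AURKA (-0.90) without _s_at and _x_at probe sets, all of them through probe sets under 6 on both arrays, and CDC25A (-0.94) and RACGAP1 (-0.87) against the mean of 2D and shGFP. Without those probe sets the spheroid median was -2.54 over 34 members above the filter, and 31 of 33 members were lower on both hairpin arrays, fewer because fewer members remained. Against the mean of 2D and shGFP the spheroid median was -2.02 and the hairpin median -0.77 over 50 members. Leaving out either hairpin array gave hairpin medians of -0.53 to -0.34 and 47 to 48 members lower. Single hairpin values turned sign for CDC25A (-0.019 as the median over probe sets, -0.54 against the mean of 2D and shGFP), ECT2 (0.032 without _s_at and _x_at probe sets, from a probe set near background), CDC25B (0.16 against the mean of 2D and shGFP) and MYBL2 (0.019 without shTRIB1-2, -0.40 without shTRIB1-1); the causes were not tested beyond this. Limma called 0 genes in all 8 alternatives, with a smallest adjusted p of 0.557 to 1. With shGFP and 2D as 2 controls, 22 of 49 members were lower at an unadjusted p under 0.05, where 3.3% of genes were. This count and the hairpin median of -0.77 also hold the difference between shGFP and 2D. No paired analysis was possible because the groups share fewer than 2 replicate numbers. The low signal of PLK1 and INCENP limits what their values show.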
